A study of Mus musculus with 4 samples.

Results

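Genes for moving new proteins into the endoplasmic reticulum (ER), adding sugars to them and carrying them between ER and Golgi were examined in mouse embryonic fibroblasts after knockdown of eIF1A. The genes were chosen by symbol, with a pattern covering signal recognition, the translocon, signal peptidase, N-glycan and GPI-anchor enzymes, Golgi glycosyltransferases, the COPI and COPII coats, Arf GTPases, cargo receptors, golgins and the COG and TRAPP tethers. It matched 99 of 4878 genes in the table. Of these 99, 93 fell into 8 steps of the pathway and 6 matched by name only, and 95 passed the filter on low values (a mean of at least 5 normalised counts). Sec62, Arf6, Tmed5 and Cog5 did not pass the filter. The pattern used names and no measured value, but the members and steps were chosen with earlier results of these data known.

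The cells were fibroblasts at passages 5 to 8, whose strain and age the labels do not give, transfected with Lipofectamine RNAiMAX and either Si-Negative control siRNA (control, 2 libraries) or siRNA named Si-eIF1A (X+18) (knockdown, 2 libraries). eIF1A helps the small ribosomal subunit find the start codon. No library was left untransfected, so both groups had been exposed to siRNA and reagent. Bulk MARS-seq, which reads the 3′ ends of polyadenylated RNA, gave 2152331 to 2595625 recovered reads per library over the genes of the table. The labels do not tell whether same-group libraries stem from different cultures, so p-values measure the spread between these libraries, which may be technical, and the siRNA target was not analysed here. Of 12 fibroblast markers 3 were present (Vim, S100a4 and Fn1), with summed normalised counts of 23010 and 17548 in controls 1 and 2 and 9879 and 12562 in knockdowns 1 and 2, and 2 of the 3 were called lower. Markers listed for macrophages, endothelium, epithelium and muscle were not among the genes analysed here. Of 5 neural markers Map2 and Nes were present, with summed values of 238 and 245 in controls and 132 and 151 in knockdowns. What part these shifts have in the results below was not tested.

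A protein bound for secretion or a membrane is recognised on the ribosome by the signal recognition particle and threaded through the Sec61 channel, where signal peptidase trims it and oligosaccharyltransferase attaches a preassembled sugar. COPII-coated vesicles then carry it out of the ER, and COPI-coated vesicles, built with the GTPase Arf1, bring escaped ER proteins and transport machinery back from the Golgi. Fibroblasts use this route heavily because they secrete collagen and other matrix proteins, whose bulky precursors need COPII components for export.

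Promoter sequences are shown first, because 4 members held the letters of a stress-response element near the start site. Windows from 250 bases before to 50 bases after each RefSeq start (build GRCm38.p6) were held for 81 of the 99 members. Kdelr2, Tmed2, Lman1, Srp19, Spcs3, Pigk and Mgat4b were among the 18 members without an entry. Both strands were searched for 5 elements. The core of the unfolded protein response element, TGACGTGG, is bound by XBP1, ATF6 and CREB3 family factors and shares its first 6 letters, TGACGT, with the cyclic AMP response element TGACGTCA. It was found in 4 members (4.94% of 81) and in 193 of 27025 genes with a promoter entry (0.714%). The 4 members were Kdelr3, Sec24d, Arf1 and Sec23a. Capitals mark the element.
Kdelr3 (chr15:79516158-79516457, plus strand): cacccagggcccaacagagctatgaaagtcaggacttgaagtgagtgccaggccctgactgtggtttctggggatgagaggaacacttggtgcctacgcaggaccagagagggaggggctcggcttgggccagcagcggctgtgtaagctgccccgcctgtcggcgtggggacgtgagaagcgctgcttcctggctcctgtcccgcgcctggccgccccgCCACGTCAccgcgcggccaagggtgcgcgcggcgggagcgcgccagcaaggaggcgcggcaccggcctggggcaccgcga
Sec24d (chr3:123267246-123267545, plus strand): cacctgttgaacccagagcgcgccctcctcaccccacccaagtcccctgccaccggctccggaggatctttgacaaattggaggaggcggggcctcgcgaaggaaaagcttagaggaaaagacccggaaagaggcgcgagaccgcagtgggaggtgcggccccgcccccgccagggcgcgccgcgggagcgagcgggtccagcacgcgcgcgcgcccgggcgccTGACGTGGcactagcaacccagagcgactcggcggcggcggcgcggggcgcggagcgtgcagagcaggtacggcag
Arf1 (chr11:59228218-59228517, minus strand, 1 of 2 starts): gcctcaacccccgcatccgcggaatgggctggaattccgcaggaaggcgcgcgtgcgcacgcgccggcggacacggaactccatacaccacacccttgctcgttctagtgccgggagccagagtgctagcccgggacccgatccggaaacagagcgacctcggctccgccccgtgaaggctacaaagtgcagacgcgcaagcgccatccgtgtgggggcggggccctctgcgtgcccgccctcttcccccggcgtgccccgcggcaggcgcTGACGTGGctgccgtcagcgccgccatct
Sec23a (chr12:59011968-59012267, minus strand): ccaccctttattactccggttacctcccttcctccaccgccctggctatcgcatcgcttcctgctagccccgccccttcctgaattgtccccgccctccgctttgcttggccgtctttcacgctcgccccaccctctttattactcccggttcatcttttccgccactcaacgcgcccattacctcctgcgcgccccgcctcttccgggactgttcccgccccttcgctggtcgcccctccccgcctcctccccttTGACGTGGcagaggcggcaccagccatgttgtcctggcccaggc

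In Kdelr3 the element lay on the opposite strand and began 30 bases before the start site, and in Sec24d it began 26 bases before the start. In Arf1 it lay 21 bases past the start shown, which is 84 bases before the other start, and in Sec23a it lay 6 bases past the start. Kdelr3, Sec24d and Arf1 were called lower in the comparison below, and Sec23a did not pass. Among members with an entry, the element was in 3 of 18 called lower, 0 of 6 called higher and 1 of 54 that did not pass. Of all genes tested 21.6% were called lower. Whether the element goes with a direction was not tested, and only 6 of the 11 members called higher had an entry. Among 149 other pathway genes with an entry, the letters of this element were found in Gbf1, Stx5a and Scfd1, which did not pass. A match of letters is a description, and neither a binding site nor a cause. The ER stress element (CCAAT, then any 9 bases, then CCACG) was found in 0.137% of genes, its variant ERSE-II (ATTGG, 1 base, CCACG) in 0.0444%, the cyclic AMP response element in 2.03% and the ATF4 element TTGCATCA in 1.03%, and no member's window held any of these letters. In the same other pathway genes, the ER stress element was found in Hspa5, Canx and Calr, and its variant in Dnajb11 and Krtcap2. The cyclic AMP response element was found in 6 of these 149 genes (Sgta, Emc10, Chpf, Klhl12, Gosr2 and Golph3) and the ATF4 element in 0.

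Which mRNAs of the pathway differed after eIF1A knockdown was asked step by step. Of the 95 members tested, 11 were higher in the knockdown libraries and 21 were lower (limma, Benjamini-Hochberg adjusted p under 0.05). The members' share called, 33.7%, was near that of all 4605 genes tested, 37.5%. Members called higher made up 11.6%, against 15.9% of all genes, and members called lower 22.1%, against 21.6%. These shares of all genes, 15.9% higher and 21.6% lower, are to be set beside each step count below. The median log2 fold change of the members was -0.12, and that of all genes was -0.01. Each fold change was taken after adding 1 to the normalised count, on a log2 scale. Leaving out control replicates 1 and 2 in turn gave a member median of -0.15 and -0.17, and leaving out knockdown replicates 1 and 2 gave -0.14 and -0.11. The number of members called changed with the library left out, as did that of all genes. Fewer cells of a kind and less RNA per cell cannot be told apart in such bulk libraries.

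**Figure D1:**
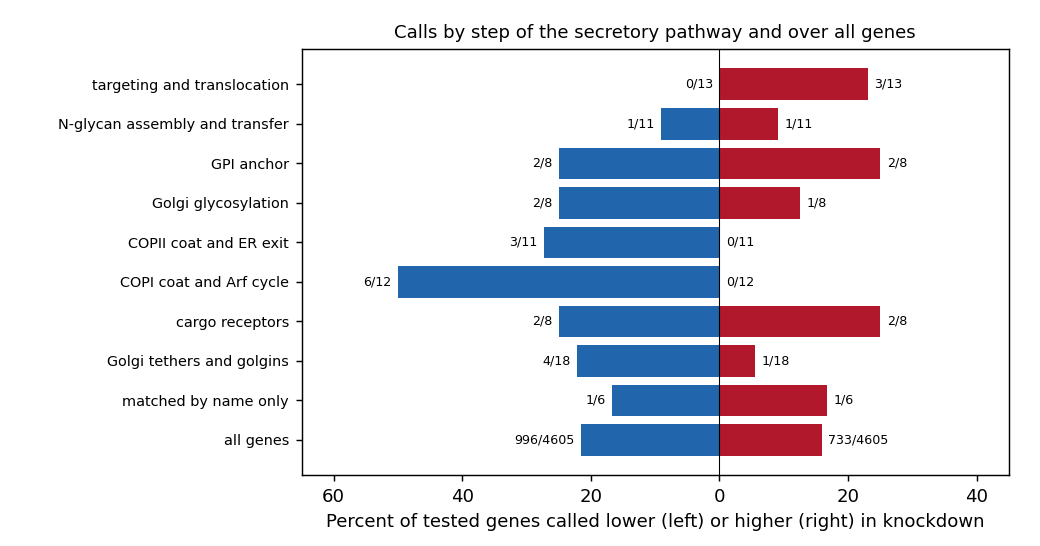
Percent of tested genes called lower (blue, to the left) or higher (red, to the right) in knockdown libraries, for each step of the pathway, for the members matched by name only and for all genes, with the count over the number tested at each bar. The COPI step had 6 of 12 members lower and 0 higher, and the targeting step 3 of 13 higher and 0 lower.

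The scaling between libraries bears on every direction below. Set to equal totals, the libraries moved the median of all genes from -0.01 to 0.34 and that of the members from -0.12 to 0.23, and 17 members were then called higher and 11 lower. Of the 32 called members, 11 passed in all 17 alternative settings, and 9 of these were lower: Kdelr3, Kdelr2, Copz2, Copg1, Copa, Arfgap3, Sec24d, Golga2 and Cog8. The other 2, Tmed2 and Pigk, were higher.

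Of 8 tested cargo receptors 2 were lower and 2 higher, and the lower ones were Kdelr3 and Kdelr2. They encode KDEL receptors, which bind the tail of ER chaperones that have leaked to the Golgi and return them in COPI vesicles. Kdelr1, of the same family, was not among the genes analysed here. Kdelr3 (mm10 chromosome 15, 79516411 to 79527739, plus strand) had 971 and 917 normalised counts in controls 1 and 2 and 243 and 192 in knockdowns 1 and 2. Both knockdown libraries lay far below both controls, and Kdelr3 had the deepest fall of the 95 members, 4.35-fold (log2 -2.12, SE 0.22, adjusted p = 5.10e-07). Kdelr2 (chromosome 5, 143403838 to 143421901, plus strand) had 919 and 913 in controls and 420 and 452 in knockdowns, and it fell 2.10-fold (adjusted p = 5.04e-04). Over the alternative settings the log2 change of Kdelr3 ran from -2.29 to -1.77 and that of Kdelr2 from -1.45 to -0.72. The 3′ end of Kdelr3 is overlapped on the opposite strand by the gene Ddx17, which had 429 and 482 in controls and 372 and 314.5 in knockdowns (log2 -0.41, adjusted p = 0.152). The sources used here do not state whether reads were counted by strand.

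The 2 cargo receptors called higher act in transport out of the ER or between ER and Golgi. Lman1, a mannose-binding receptor that carries glycoproteins out of the ER, had 99.4 and 103 in controls and 157 and 225 in knockdowns, and it rose 1.85-fold (adjusted p = 0.0118). Tmed2, a p24 family member of the early secretory pathway (chromosome 5, 124540695 to 124550506, plus strand), had 106 and 90.1 in controls and 189 and 317 in knockdowns, and it rose 2.49-fold (log2 1.31, SE 0.27, adjusted p = 9.28e-04). In both genes the knockdown libraries were above both controls, and knockdown 2 was the higher. The other tested p24 genes did not pass, with log2 values of -0.39 for Tmed10, -0.01 for Tmed1 and 0.05 for Tmed9 (95% interval of Tmed9 -0.39 to 0.50), and Lman2, a lectin related to Lman1, was at -0.34. Tmed1, the most abundant member of the step that did not pass, had 522 and 937 in controls and 705 and 685 in knockdowns, and the groups overlapped. The 3′ end of Tmed1 is overlapped on the opposite strand by Dnm2, which was called lower (adjusted p = 0.0134). Dnm2 had 1110 and 930 in controls and 635 and 617 in knockdowns. Tmed10 shares sequence with a named pseudogene, which leaves its count uncertain. Tmed5, under the filter, had a ratio of summed reads, knockdown over control, of 5.25 (95% counting interval 1.55 to 27.7). The call of Lman1 was lost without knockdown replicate 2 (adjusted p = 0.221) and with the trend on GC content removed (0.253).

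Among genes of the COPI coat and of the Arf cycle that builds it, 6 of 12 tested members were lower and 0 higher by limma. The share lower was 50%, against 21.6% of all genes, and 15.9% of all genes were higher. At an unadjusted p under 0.05, 8 were lower and 0 higher, and edgeR and DESeq2 called 0 higher and 6 and 5 lower. In the same step outside the name pattern 1 of 8 genes was lower (12.5%, median log2 -0.08). The coat subunit genes Copb1, Copb2 and Cope were not among the genes analysed here. The median log2 fold change of the 12 tested members was -0.59 and none was above 0.00. At equal library totals the median was -0.24, with all genes at 0.34, and 4 members were called lower. Copz2, an alternative zeta subunit of the coat (chromosome 11, 96849870 to 96861203, plus strand), had 603 and 594 in controls and 161 and 128 in knockdowns. It fell 4.14-fold, by 2.05 on the log2 scale with a standard error of 0.23 (adjusted p = 1.21e-06). Copa, the alpha subunit of the coat's outer layer, had 1389 and 1061 in controls and 608 and 588 in knockdowns, and it fell 2.03-fold (adjusted p = 0.00103). Copg1, a gamma subunit, had 872 and 712 in controls and 358 and 393 in knockdowns, and it fell 2.10-fold (adjusted p = 6.97e-04).

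Arf1 recruits the COPI coat when it holds GTP, and ArfGAPs make it let go. Arf1 had 1428 and 1618 normalised counts in controls and 997 and 927 in knockdowns, and it fell 1.58-fold (adjusted p = 0.018). Arfgap3 had 485 and 592 in controls and 254 and 279 in knockdowns and fell 2.01-fold (adjusted p = 0.00143). Arfgap1 (576 and 457 against 352 and 310, named after its value was seen) fell 1.55-fold (adjusted p = 0.0308). All 3 had every knockdown library below every control. The calls of Arf1 and Arfgap1 were lost at equal library totals (adjusted p = 0.246 and 0.331) and under quantile normalisation (0.347 and 0.192). They were also lost without knockdown replicate 2 (0.111 and 0.194), that of Arf1 without control replicate 2 (0.0702), and that of Arfgap1 without control replicate 1 (0.164) and knockdown replicate 1 (0.0612). Members that did not pass were Arf3 (log2 -0.55), Arf5 (-0.50), Copg2 (-0.54), Arfgap2 (-0.45), Copz1 (-0.35) and Arf4 (0.00, 95% interval -0.45 to 0.44). Arf5, the most abundant of these, had 852 and 1214 in controls and 735 and 706 in knockdowns, and without control replicate 1 it was called lower (log2 -0.75, adjusted p = 0.0158).

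In the COPII coat, which buds vesicles from the ER, 3 of 11 members were lower and 0 higher (limma; 0 were higher at an unadjusted p under 0.05 and by edgeR and DESeq2). Sec24d, a cargo-binding subunit used in procollagen export (chromosome 3, 123267455 to 123365641, plus strand), had 301 and 274 in controls and 104 and 108 in knockdowns. It fell 2.69-fold, by 1.43 on the log2 scale with a standard error of 0.24 (adjusted p = 1.26e-04). Sec31a, of the outer coat, had 1392 and 959 in controls and 534 and 681 in knockdowns and fell 1.91-fold (adjusted p = 0.00345). Sec24c, another cargo-binding subunit, had 294 and 226 in controls and 170 and 152 in knockdowns and fell 1.60-fold (adjusted p = 0.0322). In all 3 genes the groups did not overlap. Both Sec23 genes, the inner-coat partners of Sec24, did not pass (log2 -0.13 for Sec23b and -0.18 for Sec23a), and Sec24b, Sec16a, Sec22b and Sec13 lay between -0.20 and 0.15. Sec13, the most abundant of these, had 371 and 424 in controls and 490 and 397 in knockdowns. Sar1a and Sar1b, the GTPases that start coat assembly, were at 0.46 and 0.64 and did not pass (adjusted p = 0.11 and 0.143). The call of Sec31a was lost under quantile normalisation (adjusted p = 0.0587) and that of Sec24c in 8 settings, among them without control replicate 1 (0.184), knockdown replicate 1 (0.0735) or knockdown replicate 2 (0.18).

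**Figure D2:**
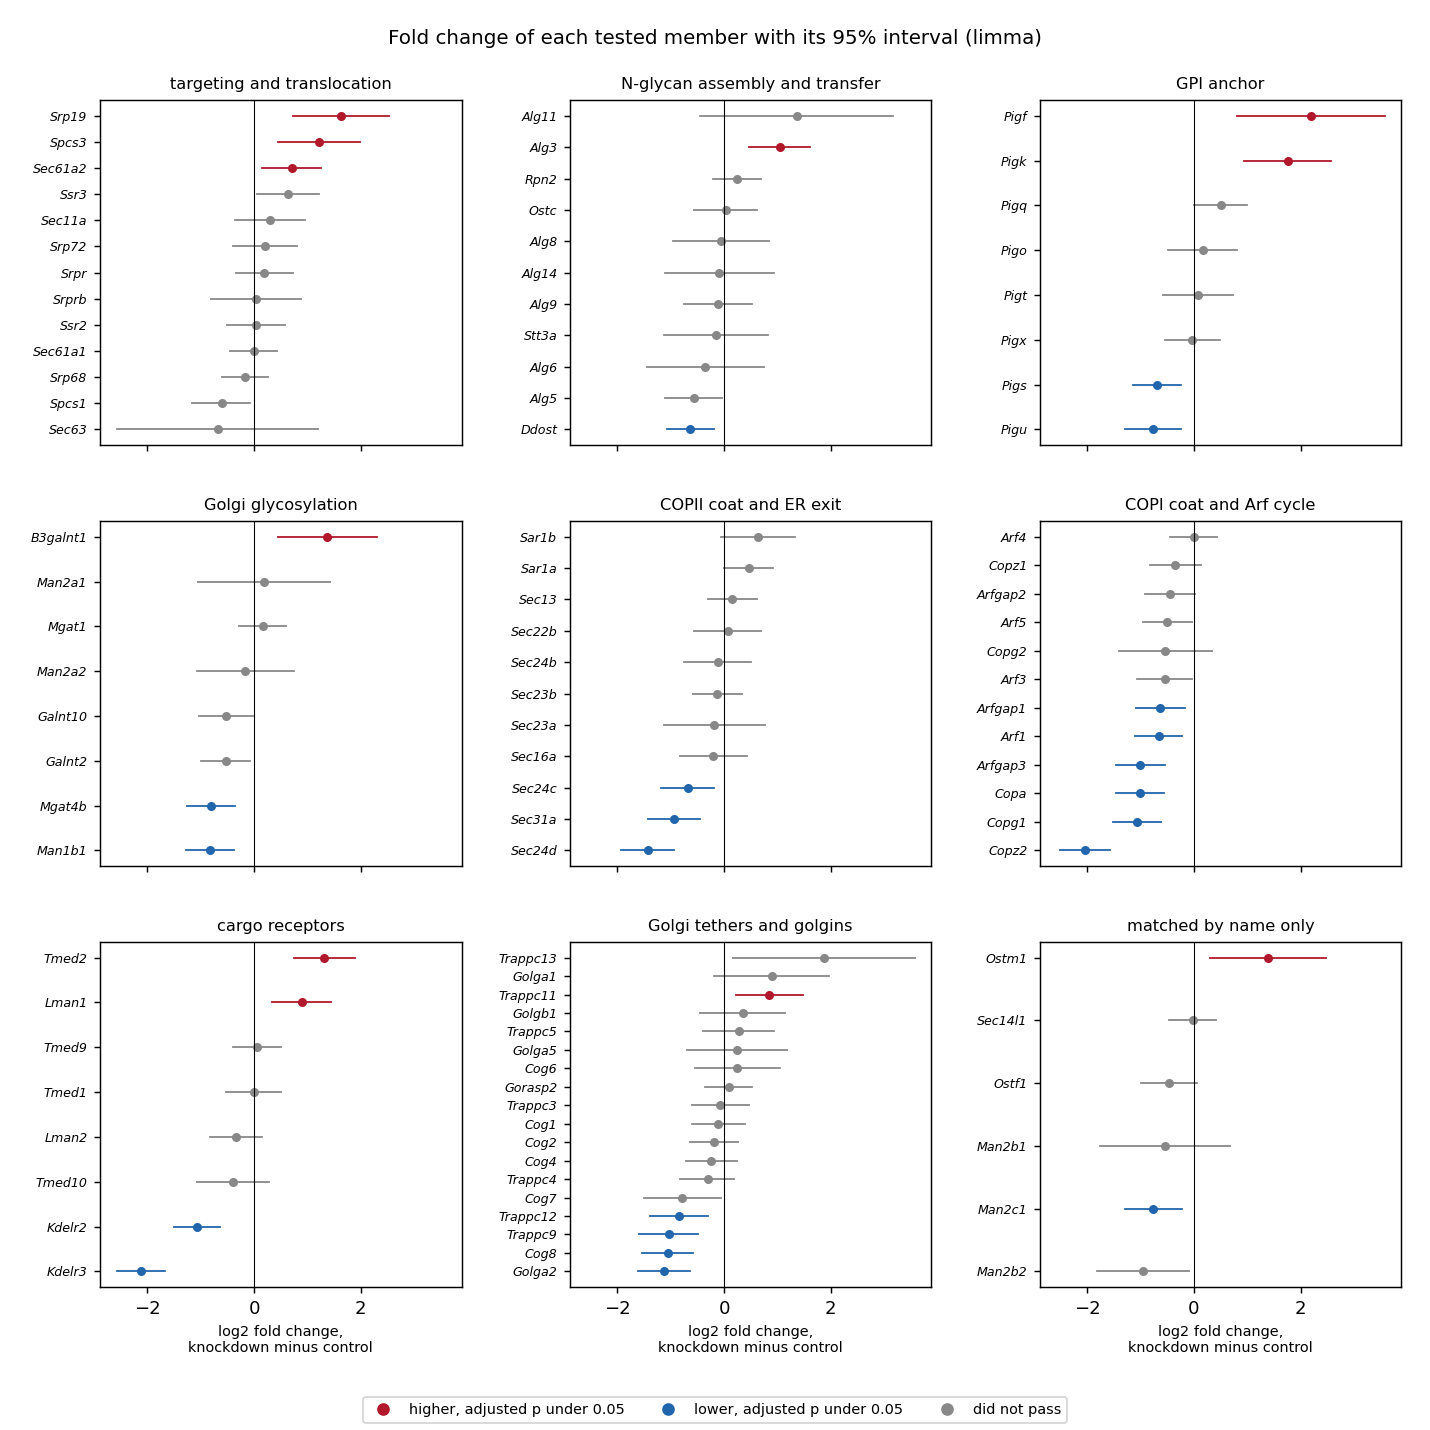
Log2 fold change (knockdown minus control, horizontal axis) of each of the 95 tested members, with its 95% interval from limma, in 9 panels by step, coloured red or blue where the adjusted p was under 0.05 and grey elsewhere. No COPI member lies above 0.00, whereas the cargo receptors run from Kdelr3 at -2.12 to Tmed2 at 1.31.

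Related genes of the same step were compared within each library. The pairs are described without a count or a test, because they were picked with the values known. Such 3′ counts are not set per length, so only the shift of a ratio is read and not its level. The log2 ratio of Copz2 to Copz1 was 0.20 and 0.04 in controls 1 and 2 and -1.69 and -1.47 in knockdowns 1 and 2. The ratio of Kdelr3 to Kdelr2 was 0.08 and 0.01 in controls and -0.79 and -1.23 in knockdowns. In both pairs the ratio was lower in each knockdown library than in either control. Sec24d against Sec24b went from 1.53 and 2.01 to 0.55 and 0.38, and Sec61a2 against Sec61a1 from -4.37 and -4.27 to -3.49 and -3.71. Arfgap3 against Arfgap2 went from 0.28 and 0.71 to -0.05 and -0.07, and Sec24c against Sec24b from 1.5 and 1.73 to 1.24 and 0.87. The groups overlapped for Copg1 against Copg2, Sec23b against Sec23a and Sar1b against Sar1a. These ratios are unaffected by how whole libraries are scaled, apart from the added pseudocount. With 2 libraries against 2 the smallest p an exact two-sided permutation test can give is 0.333.

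**Figure D3:**
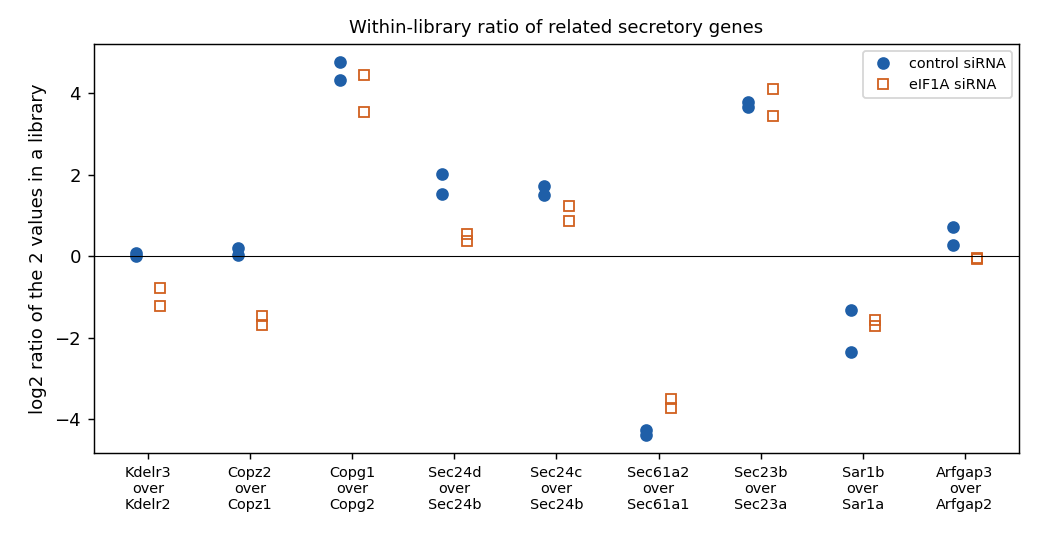
Log2 ratio of the values of 2 related genes within a library (each value + 1), for 9 pairs, with filled circles for the 2 control and open squares for the 2 knockdown libraries. Copz2 over Copz1 goes from 0.20 and 0.04 in controls to -1.69 and -1.47 in knockdowns, and the groups overlap for Copg1 over Copg2.

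At the entrance of the pathway the values of the main channel gene overlapped between groups. Sec61a1, the common channel subunit, had 1723 and 1557 in controls and 1568 and 1684 in knockdowns, a log2 fold change of -0.01 with a 95% interval of -0.45 to 0.43. Of 13 tested members of targeting and translocation 3 were higher and 0 lower (limma; 1 was lower at an unadjusted p under 0.05, and edgeR and DESeq2 called 0 lower). Srp19, an RNA-binding subunit of the signal recognition particle, had 13.8 and 45.5 in controls and 71.8 and 88.3 in knockdowns, and it rose 3.08-fold (adjusted p = 0.00591). Spcs3, a signal peptidase subunit, had 40.4 and 22.7 in controls and 57.3 and 89 in knockdowns and rose 2.31-fold (adjusted p = 0.0146). Sec61a2, a related channel gene overlapped on the opposite strand by Nudt5, had 82.7 and 79.5 in controls and 139 and 128 in knockdowns and rose 1.63-fold (adjusted p = 0.042). Srp19 and Spcs3 were genes of low count, with as few as 14 and 28 reads in a library, while Sec61a2 had at least 84. All 3 calls were lost with the GC trend removed (limma, adjusted p = 0.0667, 0.245 and 0.518).

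The Srp19 log2 change was 0.80 without control replicate 1 (adjusted p = 0.0865) and 2.45 without control replicate 2. Spcs3 missed the threshold without control replicate 2 (0.0831) and knockdown replicate 2 (0.196), and Sec61a2 did so when any 1 library was left out (0.0637 to 0.221). The other recognition particle genes, Srp68 and Srp72, were at -0.17 and 0.20, and the receptor genes Srpr and Srprb at 0.19 and 0.03. Spcs1, another signal peptidase subunit, was at -0.61, the opposite sign to Spcs3 (adjusted p = 0.0709). Of the translocon-associated Ssr genes, Ssr3 was at 0.64 (adjusted p = 0.0756) and Ssr2 at 0.03, and the signal peptidase gene Sec11a was at 0.30. Sec63, a translocation helper with as few as 1 read in a library, had a ratio of summed reads, knockdown over control, of 0.829 (95% counting interval 0.378 to 1.82).

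Assembly and transfer of N-glycans had 1 member higher and 1 lower among 11. Alg3, which adds a mannose to the growing lipid-linked sugar, had 72.8 and 74.7 in controls and 182 and 128 in knockdowns and rose 2.05-fold (adjusted p = 0.00597; 0.132 without knockdown replicate 1). Ddost, a subunit of oligosaccharyltransferase, had 1604 and 1333 in controls and 953 and 932 in knockdowns and fell 1.55-fold (adjusted p = 0.0236). Both genes had groups that did not overlap. The call of Ddost was lost in 7 settings, among them equal library totals (0.294), without control replicate 1 (0.134), knockdown replicate 1 (0.076) or knockdown replicate 2 (0.103). Other subunits of the same enzyme did not pass: Rpn2 had 1581 and 1269 in controls and 1770 and 1577 in knockdowns (log2 0.24, called higher at equal totals, adjusted p = 0.0205), Ostc was at 0.03 and the catalytic Stt3a at -0.15. The other Alg genes ran from -0.56 (Alg5) to 1.36 (Alg11, which had 1 read in a control library and a ratio of summed reads of 2.82, interval 1.36 to 6.40).

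Of 8 GPI-anchor genes 2 were higher and 2 lower, and subunits of a single enzyme were called in both directions. The transamidase that attaches the finished lipid anchor to proteins has Pigk as its catalytic subunit, with Pigs, Pigt and Pigu among its partners. Pigk (chromosome 3, 152714100 to 152980408, plus strand) had 47.2 and 21.1 in controls and 77.5 and 154 in knockdowns and rose 3.38-fold (adjusted p = 0.00161). Pigs had 792 and 648 in controls and 468 and 420 in knockdowns and fell 1.61-fold (adjusted p = 0.0165), and Pigu had 181 and 183 in controls and 110 and 103 in knockdowns and fell 1.71-fold (adjusted p = 0.0201). Pigt was at 0.08 (95% interval -0.58 to 0.74). Neither fall passed at equal library totals (adjusted p = 0.221 for both) or without knockdown replicate 2 (0.12 for both). Pigs also missed the threshold without control replicate 1 (0.0907) and Pigu without knockdown replicate 1 (0.0713).

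Pigf, which helps add the anchor's ethanolamine phosphate and is named after its value was seen, had 10.8 and 1.62 in controls and 28.3 and 21.1 in knockdowns. It was called higher (adjusted p = 0.0143) with only 2 reads in control 2. Its summed reads gave a ratio of 4.21 (interval 2.30 to 8.32). Its log2 change of 2.19 was 1.10 without control replicate 2 (adjusted p = 0.108), 3.28 without control replicate 1 and 1.99 without knockdown replicate 1 (adjusted p = 0.0975). Pigq, an enzyme subunit of the first anchor step, had 300 and 207 in controls and 371 and 334 in knockdowns, which missed the threshold (adjusted p = 0.108; 0.0172 without control replicate 1). Pigo and Pigx were at 0.16 and -0.03.

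Of 8 Golgi and ER sugar-trimming and sugar-adding enzymes 1 was higher and 2 lower. Man1b1, which trims a mannose from ER glycoproteins, had 515 and 473 in controls and 290 and 265 in knockdowns and fell 1.78-fold (adjusted p = 0.00525). Mgat4b, which starts a branch on N-glycans, had 960 and 959 in controls and 607 and 496 in knockdowns and fell 1.75-fold (adjusted p = 0.00553), but with the GC trend removed its log2 change was -0.11 (adjusted p = 0.712). Without knockdown replicate 2 the adjusted p-values were 0.0521 and 0.0834, and at equal totals 0.088 and 0.0857. B3galnt1, which makes globoside, had 10.8 and 20.3 in controls and 50.1 and 31.9 in knockdowns and rose 2.58-fold (adjusted p = 0.0214). The rise of B3galnt1 missed the threshold without control replicate 1 (0.108) and knockdown replicate 1 (0.234). Mgat1, whose product is needed for all complex N-glycans, had 529 and 541 in controls and 576 and 618 in knockdowns, a log2 fold change of 0.16 (95% interval -0.28 to 0.59). Galnt2 and Galnt10, which start mucin-type O-glycans, were each at -0.53 and did not pass (adjusted p = 0.0674 and 0.0942). The Golgi mannosidase genes Man2a1 and Man2a2 were at 0.18 and -0.17.

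Among Golgi tethers and golgins 4 of 18 members were lower and 1 higher. Golga2, which encodes the golgin GM130 of the cis-Golgi (chromosome 2, 32287384 to 32307921, plus strand), had 342 and 328 in controls and 172 and 134 in knockdowns and fell 2.19-fold (adjusted p = 8.98e-04). Cog8, a subunit of the COG tether for retrograde Golgi vesicles, had 551 and 429 in controls and 245 and 223 in knockdowns and fell 2.08-fold (adjusted p = 0.00113). Its 3′ end is overlapped by Pdf on the same strand, so the reads of the pair may not be told apart. The other COG genes tested (Cog1, Cog2, Cog4, Cog6 and Cog7) did not pass, at -0.78 for Cog7 and between -0.24 and 0.25 for the rest. Gorasp2, a stacking protein and the most abundant of the step that did not pass, had 842 and 710 in controls and 850 and 796 in knockdowns. Of the other golgins, Golga1 was at 0.90, Golgb1 at 0.35 and Golga5 at 0.25, and none passed.

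The TRAPP tethers, which act at ER to Golgi and later steps, went both ways. Trappc9 had 503 and 276 in controls and 188 and 174 in knockdowns and fell 2.05-fold (adjusted p = 0.00438). Trappc12 had 150 and 155 in controls and 87.2 and 81.5 in knockdowns and fell 1.8-fold (adjusted p = 0.0152). Trappc11 had 81.7 and 49.5 in controls and 106 and 126 in knockdowns and rose 1.8-fold (adjusted p = 0.0334). Control 1 was well above control 2 for Trappc9, and without it the fall was 0.61 on the log2 scale and missed the threshold (adjusted p = 0.0828). Trappc12 missed it without knockdown replicates 1 (0.0554) and 2 (0.0968), and Trappc11 without control replicate 2 (0.236) and knockdown replicates 1 (0.0589) and 2 (0.202). Trappc3, Trappc4 and Trappc5 were at -0.07, -0.31 and 0.28. Trappc13, with as few as 2 reads, had a ratio of summed reads of 5.60 (interval 1.95 to 22).

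**Figure D4:**
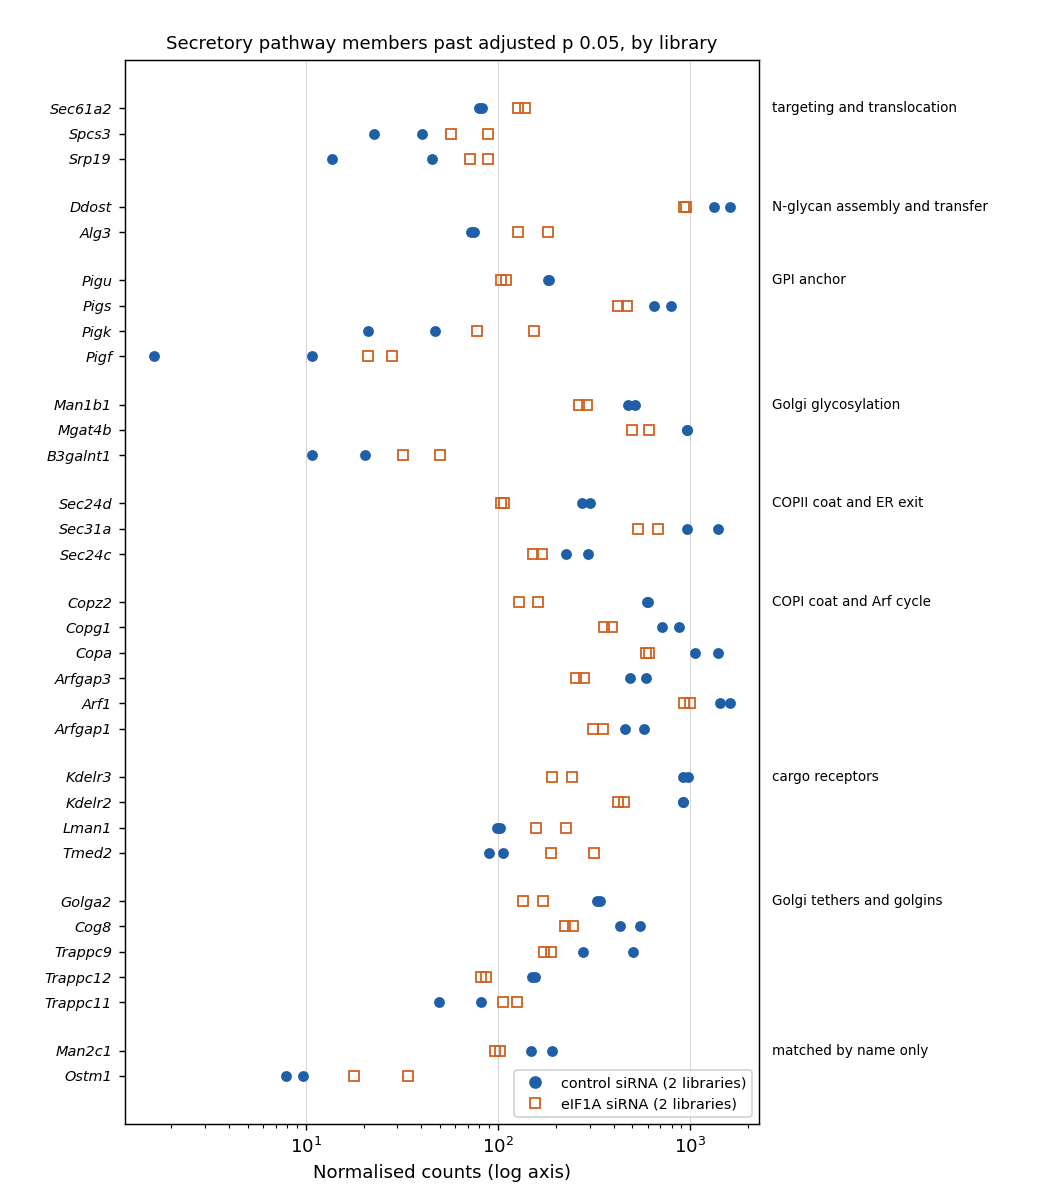
Normalised counts (log axis) of the 32 members with an adjusted p under 0.05, a row per gene grouped by step, with filled circles for the 2 control and open squares for the 2 knockdown libraries. Among members that fell, the largest fold changes are those of Kdelr3 (971 and 917 against 243 and 192) and Copz2 (603 and 594 against 161 and 128).

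Members that rose and members that fell differed in level and in base composition, in the same direction as all genes. Those called higher had a median of 75 normalised counts over all libraries, and those called lower 403, against 133 and 358 for all genes called higher and lower. Transcript GC content was 45.1% at the median of the members called higher (40.2% to 54.2%) and 53.0% at that of the members called lower (47.7% to 60.4%), with 51.1% for those that did not pass. The same order held over all genes, at 48.8% for higher, 55.9% for lower and 50.2% for the rest. The reported fit called 11 members higher and 21 lower, and of all genes 733 higher and 996 lower. With a trend on GC content removed from every library, 5 members were higher and 16 lower, and of all genes 661 were higher and 712 lower. The 11 members that passed in every setting, this one included, had GC contents of 46.3% to 55.3%.

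**Figure D5:**
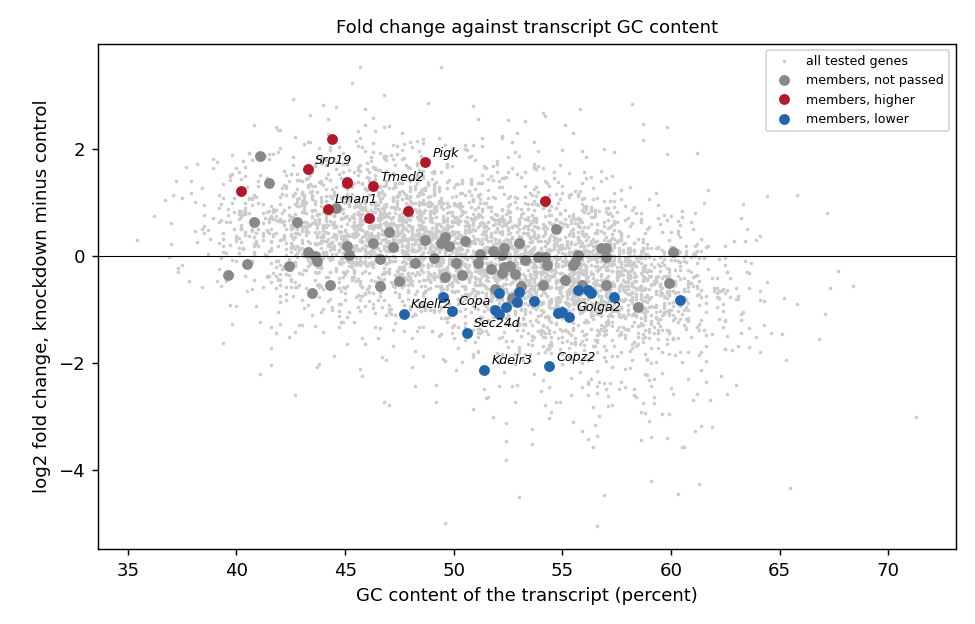
Log2 fold change (knockdown minus control) against GC content of the longest transcript in percent, with small grey points for all tested genes and large points for the members, coloured by call. Raised members lie to the left (median 45.1%) and lowered members to the right (median 53.0%), and Kdelr2 is the lowered member of lowest GC content, 47.7%.

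Other genes of the same route, taken from a list of 191 symbols outside the name pattern, were read in the same fit. Of these, 96 were present and 94 tested, and 11 were higher and 17 lower, with a median log2 fold change of 0.05. The shares were 11.7% higher, against 15.9% of all genes, and 18.1% lower, against 21.6%. The 11 include Pgs1 (log2 0.92, limma adjusted p = 0.00343), listed with the GPI-anchor genes. Its product is a mitochondrial lipid enzyme and not part of this route, so the count and share higher are slightly too large. These are rows of the same 2 against 2 libraries. The list was chosen with earlier results of these data known, and the genes below were named after their values were seen. Calls of genes outside the name pattern were not followed gene by gene through the alternative settings. As a set they gave 12 higher and 8 lower under quantile normalisation and 11 and 9 with the GC trend removed. By limma without a trend they gave 4 higher and 10 lower. Of 18 targeting and translocation genes edgeR and DESeq2 called 6 and 4 higher and 3 and 3 lower. By limma 6 of these 18 were higher (33.3%) and 4 lower (22.2%). Among them were 3 genes of the ER membrane protein complex, which inserts membrane proteins, that rose: Emc7 (144 and 172 in controls, 396 and 334 in knockdowns, adjusted p = 4.84e-04), Emc6 (504 and 636 against 1109 and 796, 0.0163) and Emc4 (11.8 and 26.0 against 40.4 and 38.7, 0.0495). Emc10 of the same complex fell (1961 and 1767 against 1079 and 1028, adjusted p = 0.00438). The ER chaperone gene Hspa5, whose protein ends in KDEL, had 477 and 506 in controls and 633 and 1416 in knockdowns and rose 1.92-fold (adjusted p = 0.0119), with knockdown 2 far above knockdown 1. Its co-chaperone gene Dnajb11 rose from 121 and 118 to 228 and 309 (adjusted p = 0.00126). Hyou1, the remaining targeting and translocation gene called higher, rose from 10.8 and 3.25 to 20.2 and 21.7 (adjusted p = 0.0392), with 4 reads in control 2. Sil1, a nucleotide exchange factor of Hspa5, fell from 391 and 380 to 257 and 264 (adjusted p = 0.048). Bag6 and Rrbp1 were also called lower (adjusted p = 0.0024 and 0.00623). Calr, another chaperone gene whose protein ends in KDEL, had 3393 and 3777 in controls and 2745 and 2862 in knockdowns and did not pass (log2 -0.35, 95% interval -0.81 to 0.10).

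Further along the route, 2 of 8 other COPII and ER exit genes were lower and 0 higher (limma; 2 were higher at an unadjusted p under 0.05, 1 by edgeR and 0 by DESeq2). They were Surf4, a cargo receptor for soluble proteins (1745 and 1742 in controls, 989 and 1073 in knockdowns, adjusted p = 0.00719), and Ergic3 (1786 and 1960 against 1282 and 1052, 0.016). Outside the name pattern 1 of 8 COPI and Arf cycle genes was lower, Arl3 (adjusted p = 0.0263), and 0 were higher (limma; 0 at an unadjusted p under 0.05 and by edgeR and DESeq2). Of 14 other N-glycan genes 2 were lower and 0 higher (limma; 0 at an unadjusted p under 0.05 and by edgeR and DESeq2), Edem2 and Gmppa at log2 -0.99 and -1.57. Among 16 other tethering and fusion genes 3 were lower and 1 higher. Rab1b, a GTPase of ER to Golgi traffic, fell (2476 and 2684 against 1390 and 1449, adjusted p = 0.00329), as did Yif1a (4.05e-04) and Cux1, while the SNARE gene Ykt6 rose (466 and 416 against 750 and 796, 0.00507). The Cux1 gene also encodes a transcription factor, and a count per gene does not tell its products apart.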

How the data were processed

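Bulk MARS-seq libraries (2 control and 2 eIF1A knockdown) were analysed from 1 table of normalised counts. The values are a signal, counts per gene that the authors divided by 1 factor per library before they were deposited. Per the submitters' processing notes, bcl2fastq 2.17.1.14, cutadapt 1.8.3, STAR, HTSeq, DESeq2 and build mm10 were named. The sources used here do not state strand, molecular identifiers or how the 4878 genes were chosen. Each deposited value was a whole multiple of its library's smallest step within 0.01 read, which gave back whole reads for 100% of values. Counting error and ratios of summed reads (95% intervals) come from those reads and cover counting error only.

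The main test was limma 3.58.1 (R 4.3.3) using its trend option, on log2(value + 1), on 4605 genes of mean at least 5, with Benjamini-Hochberg adjustment and a threshold of 0.05. edgeR 4.0.16 and DESeq2 1.42.0 on recovered reads, other normalisations, filters and pseudocounts, a replicate block, GC removal (loess, span 0.5) and each left-out library were alternatives. GC content and gene positions came from GENCODE M21 (mm10), in which 4873 symbols were matched, 132 of them through older symbols, and all 99 members. Overlaps were read over the last 1000 bases of a gene, where 12 members were overlapped on the opposite strand and 3 on the same strand. Among those not marked above were Alg3, Pigf and Arf4 (opposite strand) and Galnt2 (same strand). The method was also run on simulated counts with far fewer changed genes than were called here. No shift in library scaling was simulated, so that run cannot decide how scaling affects the calls.

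Named per step were the 5 members of smallest p past the threshold with groups that did not overlap and a mean of at least 20, and the most abundant member that did not pass. The members, steps and lists were chosen with earlier results of these data known. Replicate libraries of a group differed beyond sampling noise, with chi-square over degrees of freedom at 16.5 (control) and 13.7 (knockdown).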

Additional observations from a re-analysis of the deposited data

How the results depend on the processing

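With 2 libraries a group, calls near the threshold moved with the setting, while 11 of 32 called members passed in all 17 alternatives. Genes of few reads, such as Pigf, Srp19 and Trappc13, limit what the depth can show.

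At equal library totals all genes gave 1300 higher and 603 lower (733 and 996 in the reported fit), the members 17 and 11 (median 0.23 against -0.12), N-glycan genes 2 higher and 0 lower, GPI-anchor genes 0 lower, Golgi glycosylation 0 lower, COPII 2 higher, tethers 2 higher, and other pathway genes 25 higher and 9 lower. Under quantile normalisation N-glycan genes gave 2 higher and 0 lower, GPI-anchor genes 1 lower, Golgi glycosylation 0 higher and 1 lower, COPII 1 higher and 1 lower, and other pathway genes 8 lower. By limma without a trend 655 of all genes were lower, and the members gave 7 higher and 11 lower, targeting 0 higher, N-glycan 0 lower, GPI-anchor 1 higher and 0 lower, Golgi glycosylation 1 lower, COPII 1 lower, cargo receptors 1 higher, tethers 2 higher, and other pathway genes 4 higher and 10 lower. With the GC trend removed all genes gave 661 higher and 712 lower. In that setting 5 members were higher, and targeting gave 0 higher, GPI-anchor 1 lower, Golgi glycosylation 1 lower, cargo receptors 1 higher, tethers 0 higher, and other pathway genes 9 lower. A minimum mean of 20 left 1 GPI-anchor gene higher, because Pigf was then not tested. Tethers gave 2 higher by edgeR and 0 by DESeq2. Apart from that filter, the cause was not tested.

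With a library left out, all genes gave 438 to 758 higher, and the members 6 to 9 higher and 12 to 23 lower. Targeting gave 1 to 2 higher, N-glycan 0 to 2 higher and 0 to 1 lower, GPI-anchor 1 to 3 higher and 0 to 2 lower, Golgi glycosylation 0 to 1 higher and 0 to 3 lower, COPII 0 to 1 higher, cargo receptors 1 to 2 higher, tethers 0 to 1 higher, and other pathway genes 7 to 15 higher. The lone library left in a group is assumed to vary like the other group.

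The replicate numbers were shared by the groups only as numbers (correlation of same-numbered deviations -0.11). With the replicate block 641 genes were higher and 918 lower, the members gave 9 and 21, and Sec61a2 (adjusted p = 0.0725) and Ostm1 (0.0598) missed the threshold in limma. With the crossed pairing, chosen after seeing the data, 891 genes were higher and 1154 lower, the members gave 13 and 27, targeting had 1 lower and COPII 1 higher.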

Other observations

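Among Golgi sugar-modifying genes outside the name pattern, 5 of 22 were lower (22.7%, against 21.6% of all genes) and 3 higher (13.6%, against 15.9%) by limma. All 8 are given here, chosen after their values were seen, and genes of proteoglycan chains were called in both directions. Chst12, a chondroitin sulfotransferase gene, had 643 and 497 in controls and 92 and 99.2 in knockdowns and fell 5.86-fold (adjusted p = 1.26e-07). Slc35b2, which carries the sulfate donor into the Golgi, had 2093 and 2139 in controls and 722 and 720 in knockdowns and fell 2.93-fold (adjusted p = 1.15e-05). Chst14, a dermatan sulfotransferase gene, went from 340 and 319 to 153 and 157 (adjusted p = 0.00102), and Xylt2, which starts the chains, from 463 and 351 to 166 and 190 (6.12e-04). Nans, of sialic acid synthesis, went from 973 and 983 to 655 and 454 (adjusted p = 0.00592). In the other direction Slc35b1, a transporter of the ER, rose from 56.1 and 85.2 to 270 and 239 (adjusted p = 2.81e-05). Chpf, of chondroitin polymerisation, rose from 306 and 318 to 470 and 567 (adjusted p = 0.0133), and Extl2 from 35.4 and 19.5 to 53.3 and 54.3 (0.0435). The chain genes B3gat3, Extl3, Ndst1 and Hs2st1 did not pass, at log2 0.18, -0.07, 0.22 and -0.04.

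The 6 members that matched by name only serve other routes, such as lysosomal sugar breakdown. Man2c1, a cytosolic mannosidase gene, had 192 and 149 in controls and 103 and 96.5 in knockdowns and fell 1.69-fold (limma, adjusted p = 0.0272), a call lost in 7 of 17 settings, among them without control replicate 1 (0.16), knockdown replicate 1 (0.0819) or knockdown replicate 2 (0.135). Ostm1, a lysosomal chloride transport subunit gene, had 7.87 and 9.74 in controls and 17.8 and 34 in knockdowns and rose 2.62-fold (adjusted p = 0.0422; 0.0725 without control replicate 1 and 0.418 without knockdown replicate 2). Man2b1, Man2b2, Ostf1 and Sec14l1 did not pass, at log2 -0.54, -0.95, -0.47 and -0.02.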
